A study of Mus musculus with 8 samples.

Results

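Collagens are the triple-helical proteins that give the extracellular matrix its tensile strength, and 44 of the 49584 gene features counted in these libraries are protein-coding genes named as collagen chains. They were taken by name alone, as every protein-coding gene whose symbol is Col, a type number, the letter a and a chain number. Of these genes 11 encode chains of fibrillar collagens, 6 encode the chains of type IV of the basement membrane, and 27 encode chains of other types.

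RNA was sequenced from crude mitochondria of the hearts of 4 Tefm knockout mice and 4 control mice, so each library is 1 animal. Tefm encodes a transcription elongation factor of mitochondria. The knockout mice carried Tefm alleles with 1 exon between loxP sites and a cre transgene driven by the muscle creatine kinase promoter, a promoter used in cardiac and skeletal muscle. The controls carried the loxP-flanked alleles without cre, and their genotype is given as Tefm +/+. The labels do not state the age of the mice. Fibroblasts and vessel cells are not cardiac or skeletal muscle cells, and a crude mitochondrial fraction holds RNA of other compartments. A difference in the tissue and a difference in what co-purifies with mitochondria therefore cannot be told apart, nor fewer cells of a type from less RNA per cell.

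Fibrillar collagens assemble into the staggered fibrils that bind heart muscle bundles together, with types I and III as the bulk and type V as a minor chain that sets fibril diameter. Type IV collagen instead forms a flat mesh in the basement membrane that surrounds each cardiomyocyte and capillary. Other types coat fibrils, make beaded filaments or hexagonal lattices, anchor membranes or span them. In the heart most fibrillar collagen is made by fibroblasts, while type IV also comes from endothelial cells and cardiomyocytes.

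The knockout libraries held 21108165 to 25393933 counts and the control libraries 26268804 to 27403415. Mitochondrial DNA gave 38.7 to 59.3% of the counts in knockouts and 72.3 to 74.0% in controls. Knockout replicate 1 had the 59.3% and stood apart from the other 3 knockouts on the second principal component (42.1 against -14.8 to -9.92), so results that rest on it are given below with and without it. Levels are CPM, counts scaled to a common library size, after trimmed-mean scaling, which sets the bulk of the genes level between libraries. Tefm itself had 6.35, 6.74, 6.64 and 7.72 CPM in knockouts, against 5.80, 6.13, 5.87 and 7.18 CPM in controls, and did not pass the test (log2 fold change 0.14, SE 0.11, edgeR adjusted p = 0.324). A count over the whole gene does not isolate the deleted exon, so it does not check the labels. Cardiomyocyte markers were present in every library, and their summed level was 9379 to 13175 CPM in knockouts and 15193 to 15972 CPM in controls.

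Promoters of 4 collagen genes are shown to set members that rose beside one that fell: the type VIII pair, which rose together, Col1a2 of type I, which also rose, and Col6a3 of type VI, which fell. Each is the 250 bases before the start of the gene in RefSeq on GRCm38.p6, read in the direction of transcription, with GC boxes (GGGCGG on either strand, so CCGCCC on the other) and the CCAAT box (either strand) in capitals. Motifs that share bases run together as 1 block of capitals. GENCODE places the start of Col1a2 further upstream, so there this window lies inside the gene.
Col8a1, chr16:57754738-57754987, minus strand: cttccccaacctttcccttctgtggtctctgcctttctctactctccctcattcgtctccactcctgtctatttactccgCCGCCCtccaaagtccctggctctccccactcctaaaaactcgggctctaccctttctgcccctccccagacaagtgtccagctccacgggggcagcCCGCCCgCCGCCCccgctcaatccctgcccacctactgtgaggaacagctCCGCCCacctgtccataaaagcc
Col8a2, chr4:126286544-126286793, plus strand: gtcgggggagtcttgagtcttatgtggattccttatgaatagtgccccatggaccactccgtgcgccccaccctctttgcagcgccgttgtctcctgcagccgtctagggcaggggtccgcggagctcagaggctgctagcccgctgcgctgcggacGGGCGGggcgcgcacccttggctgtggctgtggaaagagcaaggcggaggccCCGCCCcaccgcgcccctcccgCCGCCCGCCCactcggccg
Col1a2, chr6:4505368-4505617, plus strand: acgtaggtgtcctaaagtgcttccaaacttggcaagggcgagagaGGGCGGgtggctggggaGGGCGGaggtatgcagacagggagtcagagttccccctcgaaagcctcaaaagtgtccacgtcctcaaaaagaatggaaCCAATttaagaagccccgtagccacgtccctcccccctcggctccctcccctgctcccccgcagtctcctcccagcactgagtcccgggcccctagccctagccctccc
Col6a3, chr1:90843972-90844221, minus strand: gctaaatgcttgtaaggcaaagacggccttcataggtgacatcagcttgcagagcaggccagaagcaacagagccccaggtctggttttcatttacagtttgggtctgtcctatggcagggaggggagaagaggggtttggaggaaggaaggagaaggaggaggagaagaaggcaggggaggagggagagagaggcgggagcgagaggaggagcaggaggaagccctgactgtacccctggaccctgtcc

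Col8a1 and Col8a2 each held 4 GC boxes in these windows, Col1a2 held 2 with 1 CCAAT box, and Col6a3 held neither motif. Among members not shown, Col6a2, which did not pass, also held 4, and Col5a3, Col6a6 and Col11a2, which fell, held 2 each. Col4a5 and Col16a1, which rose, held fewer GC boxes than Col5a3, so the windows shown do not stand for all members. The fall of Col6a3 was not called by DESeq2 (adjusted p = 0.0756), and scaling by library totals gave a log2 fold change of 0.03. The table gave 38 windows for 35 of the 44 collagen genes. A GC box stood in 22 of these 38 windows (57.9%), against 32.7% of the 32851 windows of all genes. The CCAAT box stood in 34.2% of collagen windows and 33.8% of all windows, and the TATA box (TATAAA, either strand) in 13.2% of collagen windows and 12.4% of all windows. The TEAD motif GGAATG, on either strand, stood in 10.5% of collagen windows and 12.6% of all windows. The letters TGATGNAA, a form of the ATF4-type motif, stood on either strand in 0 collagen windows and in 3.45% of all windows. These are counts of letters in a window and say nothing of binding.

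Several collagen genes lie head to head. Col4a1 and Col4a2 on chromosome 8 start 21 bases apart on opposite strands and share 22 exonic bases, Col4a3 and Col4a4 on chromosome 1 start 72 bases apart, and Col4a5 and Col4a6 on chromosome X start 1309 bases apart. Col3a1 and Col5a2 are neighbours on chromosome 1 with 24614 bases between them, and Col6a1 and Col6a2 on chromosome 10 with 85161 bases between them. The sources used here do not say whether counting used strand, so reads in the bases shared by Col4a1 and Col4a2 cannot be assigned. Outside such overlaps, which 13 of the 44 genes have with some other gene, each member has exons of its own. Coordinates and exon lengths are those of GENCODE M21 on GRCm38.

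Of the 44 collagen genes 32 had enough counts to be tested, and 11 rose and 6 fell in the knockouts, with 15 passing in neither direction. Passing means an adjusted p below 0.05 in edgeR's quasi-likelihood test with Benjamini-Hochberg adjustment over all 17891 genes tested. The rises were 34.4% of the tested collagen genes against 26.1% of all genes tested, and the falls 18.8% against 23.9%. In both directions together 53.1% of the tested collagen genes passed, against 50% of all genes. The median log2 fold change was 0.27 over the collagen genes and -0.01 over all genes tested. The collagen shares lay near those of all genes, and the members differed widely among themselves, from a log2 fold change of -2.22 for Col6a6 to 2.95 for Col8a1.

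Libraries of the groups did not overlap for 11 of the 32 genes. In 7 of them all knockouts lay above all controls, which held for 23.9% of all genes tested, and in 4 all knockouts lay below all controls, which held for 21.5%. The 7 were Col5a2, Col4a5, Col8a1, Col8a2, Col12a1, Col14a1 and Col16a1. The 4 were Col5a3, Col6a3, Col6a6 and Col17a1.

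**Figure D1:**
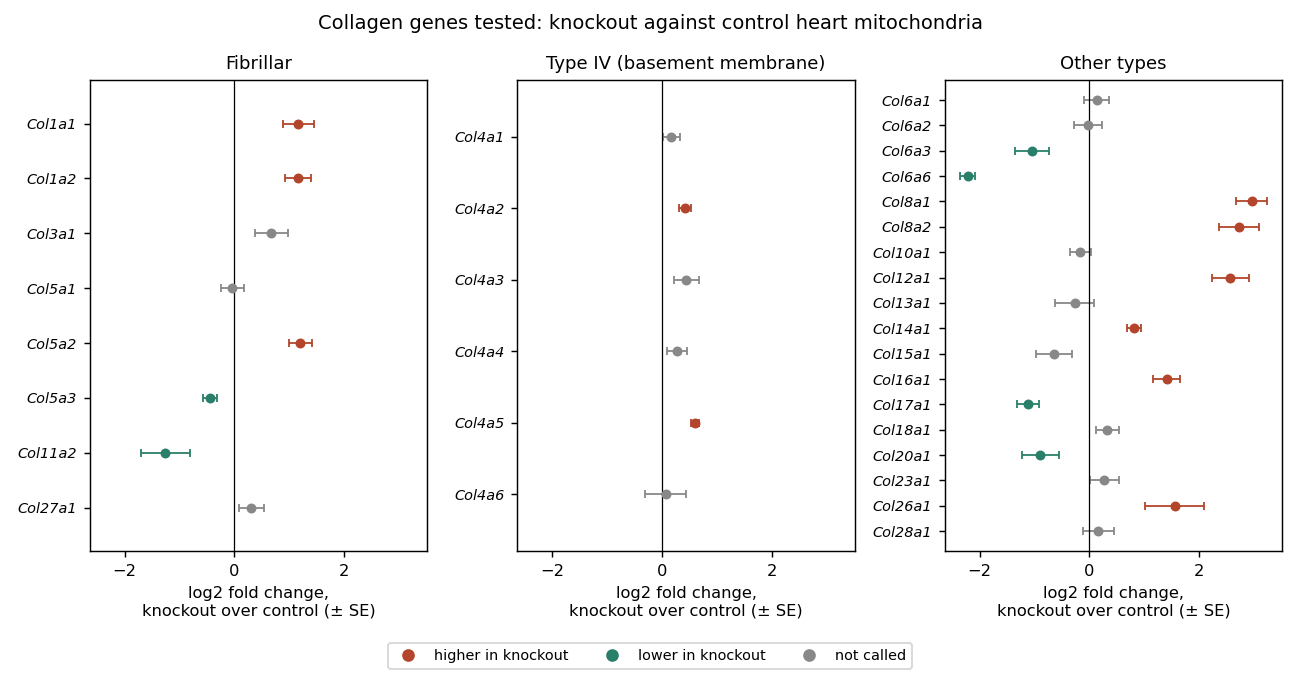
Log2 fold change of each tested collagen gene, knockout over control, with its standard error (n = 4 libraries each), in panels for fibrillar, type IV and other types; red is higher in knockout, green lower, grey did not pass. The 6 type IV genes lie from 0.07 to 0.60 and the 18 of other types from -2.22 to 2.95. A range widens with the number of genes and with low counts, which some of the 18 have. With library totals as the only scaling Col6a6 was the only member that fell.

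The scaling sets where 0 lies. Because mitochondrial RNA made up less of the knockout libraries, plain library totals raised the median gene by 0.97 on the log2 scale, and then 25 collagen genes rose and 1 fell, against 14066 and 480 of all genes tested. A fall reported here is therefore a fall relative to the bulk of nuclear genes, and of the 32 tested collagen genes only Col6a6 fell under both scalings.

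Knockout replicate 1 weighed on this set more than on other genes. It was the lowest of the 4 knockouts for 26 of the 32 collagen genes (81.2%), against 32.8% of all genes tested, and the lowest of all 8 libraries for 15 of them (46.9%), against 15.2%. Without it 34 collagen genes could be tested, of which 20 rose and 6 fell, where 26.6% of all genes rose and 25.6% fell. The 20 included all 11 of the genes that rose with every library, and the 6 included 5 of the falls. Col3a1, Col4a1, Col4a3, Col4a4, Col6a1, Col6a2, Col9a2, Col18a1 and Col27a1 were the added rises, Col15a1 was the added fall, and Col20a1 no longer passed. The labels do not say what set this animal or library apart.

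The summed level of all 44 genes was 521, 1058, 1112 and 1108 CPM in knockouts, against 703, 659, 671 and 679 CPM in controls. The other 3 knockouts thus lay above every control and knockout replicate 1 below every control. The fibrillar genes summed to 86.0, 248, 251 and 267 CPM in knockouts, against 136, 121, 133 and 134 CPM in controls. The type IV genes summed to 312, 514, 486 and 471 CPM in knockouts, against 381, 352, 351 and 370.1 CPM in controls. The remaining types summed to 123, 296, 375 and 369 CPM in knockouts, against 186, 186, 187 and 174 CPM in controls. In each class the same animal was the lowest of all 8 and the other knockouts were the highest. In the sum of the remaining types Col8a1 alone gave 62.6, 144, 210 and 191 CPM in knockouts. It gave 18.8, 22.4, 19.5 and 17.8 CPM in controls, so the higher sum of that class rests largely on 1 gene. Type IV took 59.9, 48.6, 43.7 and 42.5% of collagen counts in knockouts, against 54.2, 53.4, 52.3 and 54.5% in controls. Its share was thus lower than in any control in 3 knockouts and higher in the other. Col8a1 alone took 12.0, 13.6, 18.9 and 17.2% in knockouts, against 2.67, 3.39, 2.91 and 2.62% in controls. A larger share of 1 gene lowers that of the rest, so the type IV share does not show a fall of type IV itself.

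**Figure D2:**
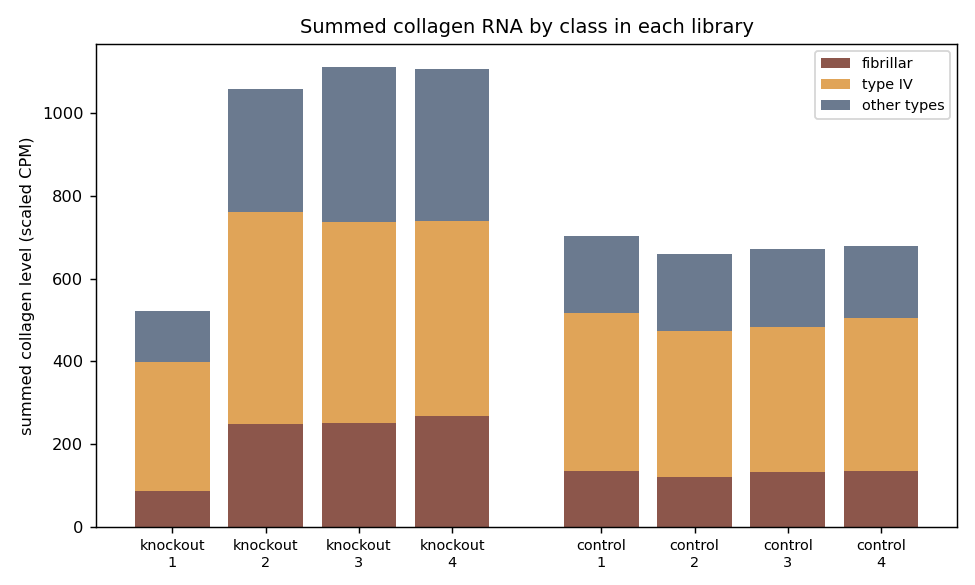
Summed CPM of the fibrillar, type IV and other collagen genes, stacked in 1 bar per library, knockouts left of controls. Knockout replicate 1 is the lowest of the 8 libraries in every class (86.0, 312 and 123 CPM), and the other 3 knockouts are above all controls. In the sum of other types Col8a1 alone gives 144, 210 and 191 CPM in those 3 knockouts, against 17.8 to 22.4 CPM in controls.

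The fibrillar class held calls in both directions. Of its 11 genes 8 were tested, 3 rose (Col1a1, Col1a2 and Col5a2), 2 fell (Col5a3 and Col11a2) and 3 passed in neither direction, with a median log2 fold change of 0.49. The rises were 37.5% of the 8 and the falls 25%, against 26.1% and 23.9% of all genes tested, and no difference was tested. Without knockout replicate 1 the class had 5 rises and 2 falls, where 26.6% of all genes rose and 25.6% fell. With library totals it had 7 rises and 0 falls, where 14066 of all 17891 genes rose and 480 fell.

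Col1a1 (ENSMUSG00000001506.10, chromosome 11, 94936224 to 94953042, plus strand), which encodes the chain that makes up most of type I collagen, had 9.52, 25.7, 27.2 and 33.3 CPM in knockouts, against 13.5, 9.07, 9.74 and 10.6 CPM in controls. It rose 2.24-fold (log2 fold change 1.17, SE 0.28, edgeR adjusted p = 0.00295), although knockout replicate 1 lay among the controls. Without that library its log2 fold change was 1.42. Col1a2, which encodes the other chain of type I, had 20.6, 52.4, 56.8 and 53.8 CPM in knockouts, against 23.2, 17.9, 22.0 and 19.4 CPM in controls. It rose by nearly the same amount (1.16, SE 0.23, edgeR adjusted p = 0.00097), again with knockout replicate 1 inside the control range and the other 3 above it.

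Col3a1 encodes the single chain of type III, which joins type I in the thin, compliant fibrils of the heart. It had 26.4, 105, 99.2 and 115 CPM in knockouts, against 53.5, 50.3, 54.8 and 58.5 CPM in controls. With all libraries it did not pass (0.67, SE 0.30, edgeR adjusted p = 0.0798, 95% interval 0.02 to 1.32), knockout replicate 1 being below every control and the other 3 above. Without that library it passed at 0.97 (edgeR adjusted p = 3.25e-09).

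Type V chains start and limit the growth of type I fibrils, and its 3 genes went different ways. Col5a2 had 12.8, 29.2, 31.9 and 31.4 CPM in knockouts, against 10.8, 11.0, 12.0 and 12.3 CPM in controls. All knockouts lay above all controls, and the rise was 2.30-fold (1.20, SE 0.22, edgeR adjusted p = 0.000387). Col5a1 had 8.30, 23.0, 20.5 and 18.9 CPM in knockouts, against 19.3, 17.6, 18.0 and 18.0 CPM in controls, which overlapped (-0.04, SE 0.21, edgeR adjusted p = 0.899). Col5a3 had 6.08, 8.36, 10.2 and 9.86 CPM in knockouts, against 11.7, 11.8, 11.7 and 11.9 CPM in controls. All knockouts lay below all controls, and it fell relative to nuclear genes (-0.44, SE 0.13, edgeR adjusted p = 0.0133), while library totals gave 0.58 (edgeR adjusted p = 0.0138), the opposite direction.

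Col11a2, a chain of the cartilage collagen type XI, was near the lower limit of counting. It had 0.115, 0.666, 0.404 and 0.252 CPM in knockouts, against 0.580, 0.576, 1.49 and 0.947 CPM in controls. The groups overlapped, yet it passed (-1.26, SE 0.44, edgeR adjusted p = 0.0282), and it lost the call in 4 of the 8 fits that left out 1 library (edgeR adjusted p up to 0.129): those without control replicate 3, control replicate 4, knockout replicate 3 or knockout replicate 4. Col27a1, another fibrillar collagen of cartilage, did not pass (0.30, edgeR adjusted p = 0.29).

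The 6 type IV genes had log2 fold changes of 0.07 to 0.60. Col4a5 and Col4a2 rose, 4 passed in neither direction and 0 fell, with a median log2 fold change of 0.35. The rises were 33.3% of the 6 and the falls 0%, against 26.1% and 23.9% of all genes tested, and no difference was tested. Without knockout replicate 1 the rises were 5, where 26.6% of all genes rose. With library totals all 6 rose, as did 14066 of all 17891 genes.

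Col4a1 (ENSMUSG00000031502.11, chromosome 8, 11198423 to 11312826, minus strand) and Col4a2 encode the chains of the mesh found in nearly all basement membranes. Col4a1 had 143, 255, 245 and 257 CPM in knockouts, against 209.5, 189, 191 and 208 CPM in controls. It did not pass with all libraries (0.17, SE 0.15, edgeR adjusted p = 0.352, 95% interval -0.14 to 0.49), and knockout replicate 1 was the lowest of all 8. Without it Col4a1 passed at 0.33 (edgeR adjusted p = 0.000245). Col4a2 had 132, 212, 191 and 172 CPM in knockouts, against 139, 131, 129 and 131 CPM in controls. It rose 1.34-fold (0.42, SE 0.12, edgeR adjusted p = 0.0081), with knockout replicate 1 inside the control range.

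Col4a5, a chain that pairs with Col4a3 and Col4a4 in the kidney and with Col4a6 around smooth muscle, had the firmest rise of the class. It had 26.7, 29.6, 30.2 and 25.8 CPM in knockouts, against 18.4, 17.2, 18.9 and 19.5 CPM in controls. All knockouts, replicate 1 included, lay above all controls (0.60, SE 0.08, edgeR adjusted p = 2.26e-05). Its neighbour Col4a6 had 0.765, 0.724, 0.981 and 0.851 CPM in knockouts, against 0.263, 0.996, 1.44 and 0.498 CPM in controls, and did not pass (0.07, SE 0.37, edgeR adjusted p = 0.889).

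Col4a3 had 3.63, 8.07, 8.54 and 6.52 CPM in knockouts, against 4.95, 6.29, 3.82 and 4.78 CPM in controls. Col4a4 had 5.89, 9.41, 11.1 and 8.85 CPM in knockouts, against 8.91, 8.17, 6.42 and 5.73 CPM in controls. Both overlapped between the groups and did not pass (0.44 with edgeR adjusted p = 0.117 for Col4a3, and 0.28 with edgeR adjusted p = 0.217 for Col4a4). Without knockout replicate 1 both passed, at 0.63 and 0.42.

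Ratios between chains do not depend on the scaling. For each of 4 chosen ratios the group means were compared in a two-sided exact permutation test over the 70 ways to split the libraries. The p-values were adjusted over the 4 ratios. The log2 ratio of Col1a1 to Col1a2 counts averaged -0.97 ± 0.19 in knockouts and -0.95 ± 0.17 in controls (SD, n = 4 each; exact p = 0.886, adjusted 0.886). The log2 ratio of Col1a1 to Col3a1 was -1.47, -2.02, -1.87 and -1.79 in knockouts, against -1.99, -2.47, -2.49 and -2.47 in controls. It was 0.57 higher in knockouts (exact p = 0.0571, adjusted 0.114), with 1 control inside the knockout range.

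The log2 ratio of Col4a1 to Col4a2 averaged 0.33 ± 0.20 in knockouts and 0.59 ± 0.06 in controls (SD, n = 4 each; exact p = 0.0857, adjusted 0.114). The log2 ratio of Col4a1 to Col1a1 was 3.90, 3.31, 3.17 and 2.95 in knockouts, against 3.95, 4.37, 4.29 and 4.30 in controls. All knockouts lay below all controls, with a difference of -0.90 (exact p = 0.0286, the smallest that 70 splits allow; adjusted 0.114). After adjustment none of the 4 ratios passed 0.05, a level that this design allows only where at least 3 of the 4 reach the smallest p. Knockout replicate 1 was the knockout nearest to the controls in the ratio of Col4a1 to Col1a1 and the farthest in that of Col1a1 to Col3a1.

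**Figure D3:**
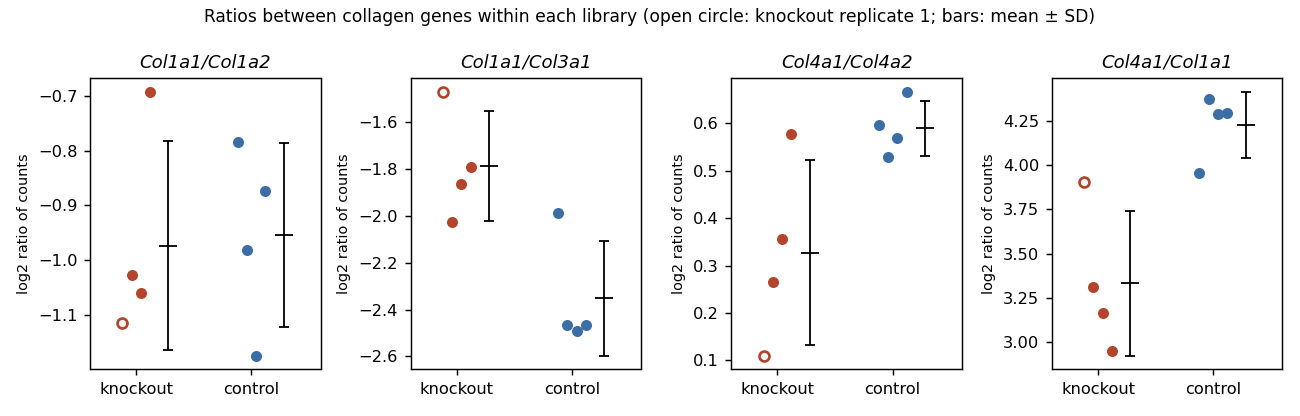
Log2 ratio of counts for 4 pairs of collagen genes in each library, knockouts left of controls, with 0.5 added to each count. The groups separate in the ratio of Col4a1 to Col1a1 alone (knockouts 2.95 to 3.90, controls 3.95 to 4.37).

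The widest changes were in the other types, the class with the most genes. Of these 27 genes 18 were tested, 6 rose, 4 fell and 8 passed in neither direction, with a median log2 fold change of 0.15. Without knockout replicate 1 the class had 10 rises and 4 falls, and with library totals 12 rises and 1 fall. The subfamilies are too small to be set against the 26.1% of all genes that rose and the 23.9% that fell, and no difference between them was tested. The short-chain network collagens had 2 rises among 3 tested, the collagens that decorate fibrils (FACIT) had 3 rises and 1 fall among 4, the beaded-filament chains of type VI had 2 falls among 4 (2 rises and 2 falls without knockout replicate 1), the membrane-spanning collagens had 1 fall among 3 and the multiplexins had 0 calls among 2.

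Type VIII is a short-chain collagen that forms hexagonal lattices in vessel walls and in the cornea, and both of its genes rose. Col8a1 (ENSMUSG00000068196.4, chromosome 16, 57624258 to 57754737, minus strand) had 62.6, 144, 210.0 and 191 CPM in knockouts, against 18.8, 22.4, 19.5 and 17.8 CPM in controls. Every knockout, replicate 1 included, was above every control, and the rise was 7.74-fold (2.95, SE 0.28, edgeR adjusted p = 1.17e-06). Col8a2 was scarcer, with raw counts of 34, 67, 92 and 110 in knockouts, against 10, 5, 7 and 5 in controls. That is 2.34 ± 0.933 CPM in knockouts and 0.356 ± 0.130 CPM in controls (SD, n = 4 each), a rise of 6.57-fold (2.72, SE 0.36, edgeR adjusted p = 2.92e-05) with no overlap of the groups. Col10a1, the short-chain collagen of growth-plate cartilage, did not pass (-0.16, edgeR adjusted p = 0.504).

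The FACIT group binds to the surface of fibrils. Col12a1 had 2.29, 3.53, 6.52 and 5.58 CPM in knockouts, against 0.843, 0.472, 0.830 and 0.897 CPM in controls. The groups did not overlap, and it rose 5.90-fold (2.56, SE 0.34, edgeR adjusted p = 2.58e-05). Col14a1 (0.81, edgeR adjusted p = 8.9e-05) and Col16a1 (1.40, edgeR adjusted p = 0.000258), other FACIT genes, also rose with no overlap. Col20a1 fell (-0.89, edgeR adjusted p = 0.0411) with overlapping groups, and the fall was lost without knockout replicate 1 (edgeR adjusted p = 0.0699), with DESeq2 (adjusted p = 0.0638) and with library totals, which gave 0.12.

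Type VI chains form beaded filaments next to the basement membrane of muscle, and here the chains parted. Col6a1 had 18.0, 40.9, 49.3 and 52.2 CPM in knockouts, against 35.8, 37.5, 36.5 and 36.7 CPM in controls (0.13, SE 0.22, edgeR adjusted p = 0.647). Col6a2 had 11.0, 36.5, 36.3 and 37.7 CPM in knockouts, against 33.9, 28.8, 30.8 and 30.7 CPM in controls (-0.03, SE 0.26, edgeR adjusted p = 0.943). In both genes 3 knockouts were above every control and replicate 1 below every control, and without it they passed at 0.37 and 0.24.

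Col6a3, the large chain that completes the type VI trimer, had 5.01, 20.7, 24.2 and 25.2 CPM in knockouts, against 42.2, 38.0, 43.4 and 33.0 CPM in controls. All knockouts lay below all controls (-1.05, SE 0.31, edgeR adjusted p = 0.0128). Without knockout replicate 1 the fall was 0.75 in size and still passed, DESeq2 did not call it (adjusted p = 0.0756), and library totals gave 0.03. Col6a6 (ENSMUSG00000043719.14, chromosome 9, 105687809 to 105828160, minus strand), a later-found chain similar to that of Col6a3, had 1.72, 1.74, 1.67 and 1.80 CPM in knockouts, against 8.27, 9.80, 6.92 and 7.28 CPM in controls. It was 4.65-fold lower in knockouts (-2.22, SE 0.14, edgeR adjusted p = 1.88e-08), with hardly any spread among knockouts, and library totals left a fall (-1.23, edgeR adjusted p = 1.08e-05). Its exons share 63 bases with the predicted gene Gm38314 on the other strand. Col6a5, another chain of this kind, was too low to test, with 1 count over the 4 knockouts and 19 over the 4 controls.

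The multiplexins Col15a1 and Col18a1 lie at the border of basement membranes, and Col18a1 is the source of endostatin. Col15a1 had 4.70, 22.7, 17.7 and 28.3 CPM in knockouts, against 29.1, 29.3, 28.1 and 28.7 CPM in controls, and did not pass (-0.64, SE 0.33, edgeR adjusted p = 0.12). Knockout replicate 4 lay inside the control range and the other 3 below it. Col18a1 had 2.49, 5.79, 5.28 and 4.13 CPM in knockouts, against 3.58, 3.14, 3.87 and 3.64 CPM in controls (0.33, SE 0.21, edgeR adjusted p = 0.222). Without knockout replicate 1 Col15a1 fell (-0.34, edgeR adjusted p = 0.0184) and Col18a1 rose (0.51, edgeR adjusted p = 0.00662), in opposite directions.

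Among the remaining tested genes Col17a1, a membrane-spanning collagen of hemidesmosomes, fell (-1.12, edgeR adjusted p = 0.000385) with no overlap, and library totals gave -0.13, which did not pass. Col26a1 lay between 0.153 and 1.13 CPM in knockouts and between 0.157 and 0.548 CPM in controls, which overlapped, and rose (1.55, edgeR adjusted p = 0.0276). Col13a1 (-0.27), Col23a1 (0.27) and Col28a1 (0.16) did not pass. The 12 genes too low to test were Col2a1, Col6a4, Col6a5, Col7a1, Col9a1, Col9a2, Col9a3, Col11a1, Col19a1, Col22a1, Col24a1 and Col25a1. Of these Col9a2 had the most counts, 113 over the knockouts and 26 over the controls.

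**Figure D4:**
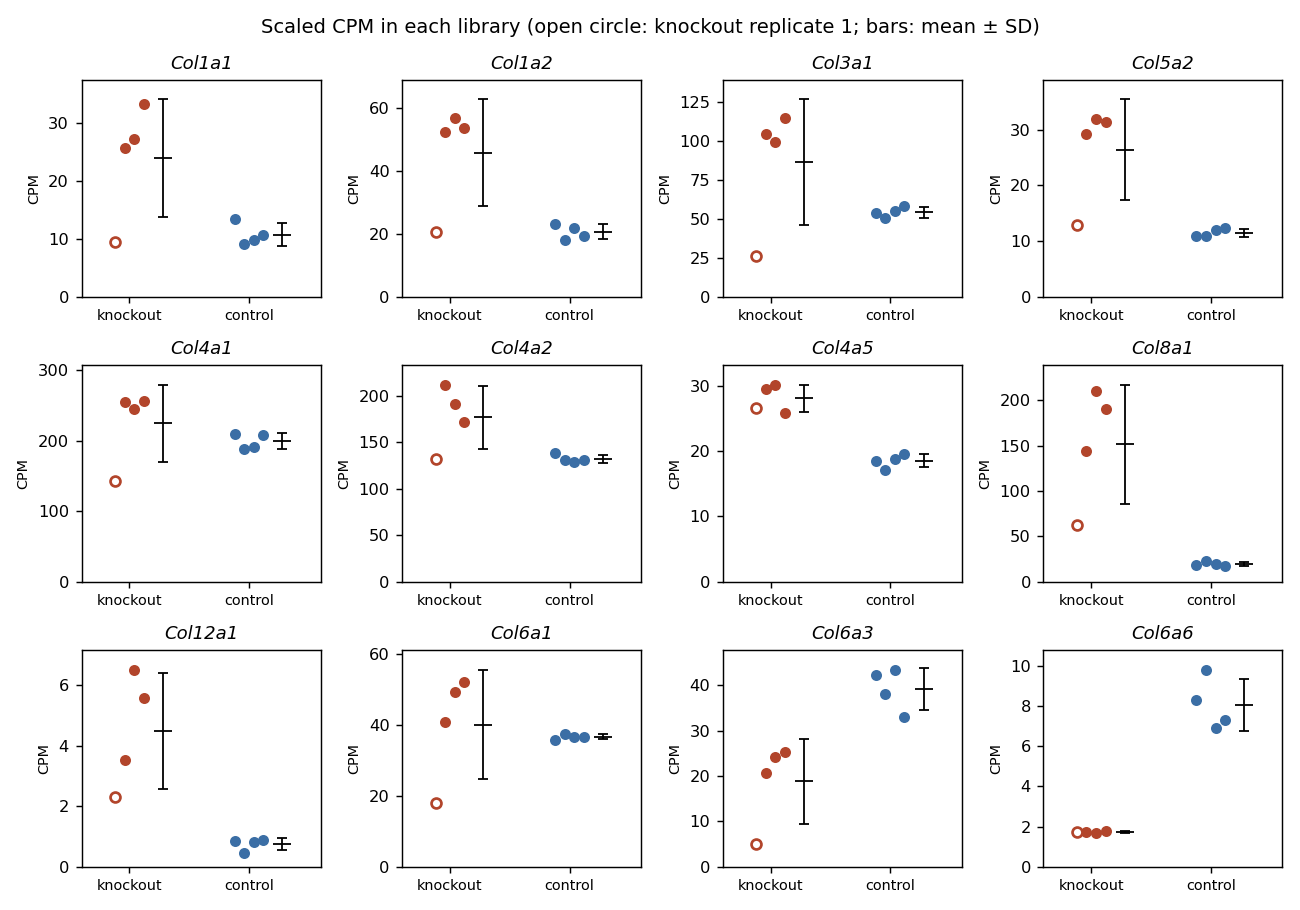
Scaled CPM of 12 collagen genes in each library, knockouts (red) left of controls (blue), with the mean and SD of each group beside the points; the open circle is knockout replicate 1. It lies within or below the control range for Col1a1, Col1a2, Col3a1, Col4a1, Col4a2 and Col6a1, and above it for Col5a2, Col4a5, Col8a1 and Col12a1; every knockout lies below the controls for Col6a3 and Col6a6, of which Col6a3 moved to 0.03 (log2) with library totals.

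Levels of different genes were compared per kilobase of merged exon. Col4a1 and Col4a2 were the most abundant collagen mRNAs in both groups, at 30.1 and 26.7 CPM per kilobase in knockouts and 26.7 and 20.0 CPM per kilobase in controls. Their libraries did not overlap in controls (25.3 to 28.1 for Col4a1 and 19.5 to 20.9 for Col4a2) but did in knockouts (19.1 to 34.4 and 20.0 to 32.0). Col8a1 held rank 3 in knockouts and rank 9 in controls, at 19.4 CPM per kilobase in knockouts and 2.50 in controls. Col6a1 came next to it in knockouts with 9.16 CPM per kilobase, against 8.36 in controls, and Col3a1 followed with 8.80 in knockouts, against 5.53 in controls. In knockouts Col6a1 (4.12 to 11.9) and Col3a1 (2.69 to 11.7) overlapped between libraries, and in controls they did not. These ranks rest on merged exon length, which takes in exons of every annotated transcript. It is 4380 bases for Col6a1 and 9816 for Col3a1. Before division by length Col3a1 was the higher, with a mean CPM of 86.4 in knockouts and 54.3 in controls. Col6a1 had a mean CPM of 40.1 in knockouts and 36.6 in controls.

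The enzymes that build collagen did not move as 1 block. Of 28 tested genes of proline supply, chain modification, folding and propeptide removal 9 rose and 7 fell, with a median log2 fold change of 0.06. The counts were 10 and 7 without knockout replicate 1. Counts of rises and falls in this list and the ones that follow are small and stand beside the 26.1% of all genes tested that rose and the 23.9% that fell, and the scaling moves them: with library totals, where 14066 of all genes rose and 480 fell, 24 biosynthesis genes rose and 0 fell. Pycr1 (4.20) and Aldh18a1 (3.40), which make proline, had the largest rises. P4hb, the shared subunit of prolyl hydroxylase and a general folding enzyme, rose (0.70), whereas P3h4, a partner of lysyl hydroxylation, fell (-0.96), as did the collagen chaperone gene Serpinh1 (-0.71) and the prolyl hydroxylase subunit P4ha1 (-0.59), both named for their role after their values were seen. The last 3 falls were relative to nuclear genes, since library totals gave 0.02, 0.32 and 0.41. With library totals P4ha1 passed as a rise (edgeR adjusted p = 0.042). P3h2 (1.28) and Adamts2 (1.07) rose with smaller p-values than those of Serpinh1 and P4ha1. Serpinh1 had 64.4, 104, 82.5 and 104 CPM in knockouts, against 130, 116, 157 and 175 CPM in controls.

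Of 7 tested cross-linking enzymes 5 rose and 1 fell, with a median log2 fold change of 1.141. The counts were 6 and 1 without knockout replicate 1 and 6 and 0 with library totals. Lox, a lysyl oxidase that joins fibrillar collagen, had 20.5, 21.5, 25.2 and 21.4 CPM in knockouts, against 1.90, 2.67, 2.66 and 3.39 CPM in controls (3.06, SE 0.14, edgeR adjusted p = 7.23e-10). Tgm2, a transglutaminase, rose (1.64), as did Loxl4 (2.07). Pxdn, the peroxidase that cross-links type IV collagen, had 24.4, 28.2, 28.2 and 26.5 CPM in knockouts, against 63.8, 67.9, 65.0 and 62.0 CPM in controls. It fell relative to nuclear genes (-1.27, SE 0.07, edgeR adjusted p = 7.48e-09), and with library totals it did not pass at -0.26. Knockout replicate 1 was the lowest knockout for both genes, yet lay beside the other knockouts and away from the controls.

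Genes of collagen breakdown and its inhibitors held 6 rises and 1 fall among 11 tested, 7 and 1 without knockout replicate 1 and 10 and 1 with library totals. Ctsk, the collagen-degrading cathepsin, rose (1.89), as did the inhibitor Timp3 (0.66) and the membrane collagenase Mmp14 (0.59), while Mmp15, another membrane metalloproteinase, fell (-1.88, and -0.85 with library totals). Among 7 tested collagen receptors Itgb1 (0.27) and Itga11 (0.87), integrin subunits, rose and 0 fell, with 3 rises and 0 falls without knockout replicate 1 and 6 and 0 with library totals. Of 17 tested partners of type IV collagen in the basement membrane 4 rose and 5 fell. The counts were 6 and 6 without knockout replicate 1, and 13 and 0 with library totals. Fbln2 (1.38) and the laminin chain Lamc3 (2.61) rose, and the laminin chains Lama4 (-0.69) and Lama5 (-0.83) fell, with library totals turning the falls to 0.33 and 0.20. Of 9 small leucine-rich proteoglycans, which bind fibrils, 5 rose and 2 fell, among them Bgn (1.57), Fmod (3.51) and Prelp (0.74) as rises and Ogn (-0.70, or 0.30 with library totals) as a fall. The proteoglycan counts were 7 and 2 without knockout replicate 1 and 7 and 0 with library totals.

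Among 6 tested genes of TGF-beta, its receptors and CTGF, which drive matrix production in many tissues, 3 rose and 0 fell, with 4 rises without knockout replicate 1 and 6 with library totals. Ctgf had 157, 208, 249 and 159 CPM in knockouts, against 18.1, 19.0, 18.5 and 15.5 CPM in controls (3.44, SE 0.15, edgeR adjusted p = 5.3e-10). Tgfb2 rose (2.67, SE 0.27, edgeR adjusted p = 1.82e-06) and Tgfb1 did not pass (0.10).

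**Figure D5:**
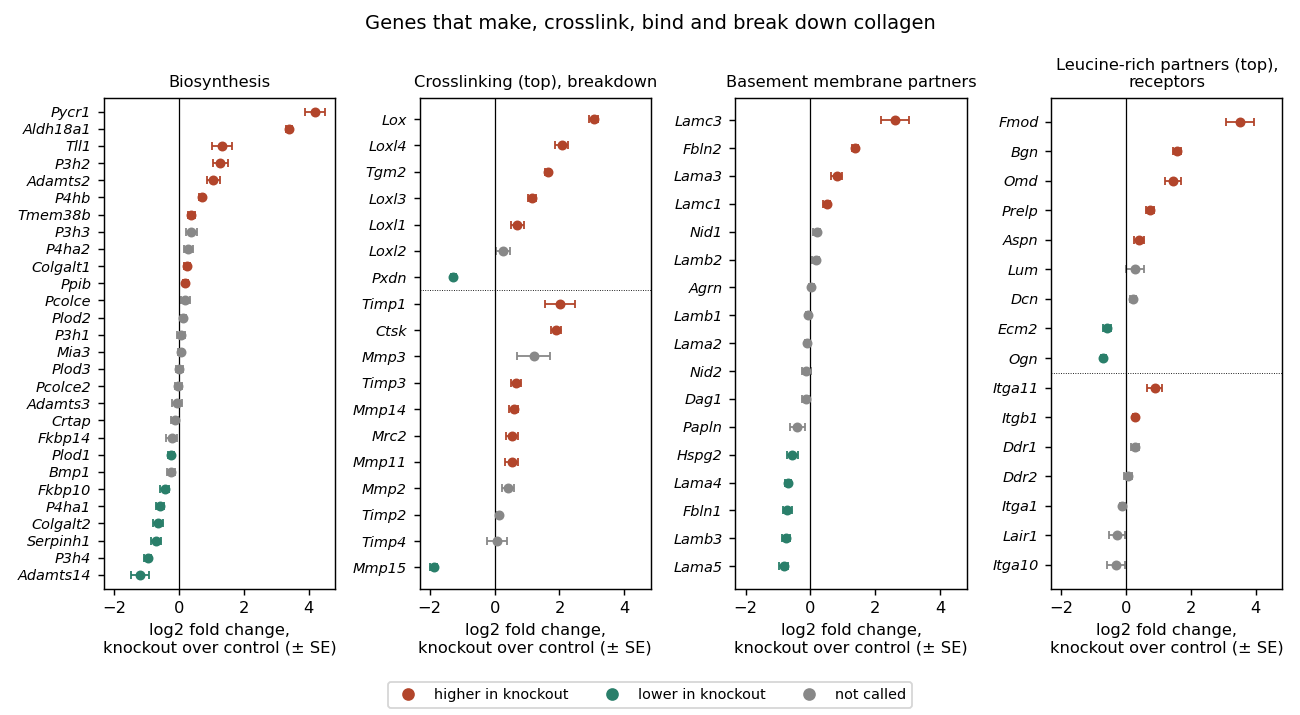
Log2 fold change of each tested gene that makes, cross-links, breaks down or binds collagen, knockout over control, with its standard error (n = 4 libraries each); red is higher in knockout, green lower, grey did not pass. Lox (3.06) and Pxdn (-1.27) sit at opposite ends of the cross-linking genes, and biosynthesis genes spread to both sides of a median of 0.06; library totals as the only scaling raise the median gene by 0.97, so that 0 biosynthesis genes are called lower.

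Markers of the cells that make collagen were counted beside these changes. Fibroblast markers had 2 rises and 2 falls among 8 tested, and their summed level was 340.0 to 433 CPM in knockouts and 411 to 447 CPM in controls. Pi16 (0.87) and Tcf21 (0.44) rose and Gsn (-0.69) and Dpt (-0.69) fell. The list had 5 rises and 2 falls without knockout replicate 1, the added rises being Dcn, Lum and Ddr2, and 6 rises and 0 falls with library totals. Dcn and Lum are also among the small leucine-rich proteoglycans above, and Ddr2 among the receptors, so their rises are counted in both places. Pdgfra, a fibroblast-defining receptor, had 29.2, 29.3, 34.6 and 32.4 CPM in knockouts, against 26.6, 30.9, 29.8 and 26.2 CPM in controls, and did not pass (0.15, edgeR adjusted p = 0.163). Activated-fibroblast markers had 3 rises and 1 fall among 5 tested of 6 listed, with a summed level of 60.7 to 120 CPM in knockouts and 33.1 to 47.3 CPM in controls. The activated list had 3 and 1 without knockout replicate 1 and 4 and 0 with library totals. In that list Comp (4.08), Postn (2.92) and Meox1 (1.51) rose and Acta2, the smooth-muscle actin of contractile fibroblasts, fell (-1.07, or -0.11 with library totals). Postn had 29.9, 62.1, 75.1 and 78.6 CPM in knockouts, against 6.85, 8.33, 8.80 and 8.47 CPM in controls, so knockout replicate 1 was again the lowest knockout.

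Endothelial markers had 0 rises and 2 falls among 8, with 415 to 457 CPM in knockouts and 456 to 480 CPM in controls. Pericyte and smooth muscle markers had 1 rise and 2 falls among 8, with 566 to 627 CPM in knockouts and 716 to 739 CPM in controls. Leukocyte markers had 0 rises and 2 falls among 5 tested of 7, with 55.0 to 82.5 CPM in knockouts and 74.3 to 107 CPM in controls, and the lymphocyte gene Cd3e was near 0 with 5 counts in all. Schwann cell markers (0 rises and 1 fall among 3) and epicardial markers (0 rises and 1 fall among 2) summed to 5.40 CPM or less in every library. Cardiomyocyte markers had 3 rises and 4 falls among 8. These lists, without knockout replicate 1, gave 0 rises and 3 falls (endothelial), 2 and 3 (pericyte and smooth muscle), 0 and 2 (leukocyte), 0 and 2 (Schwann), 0 and 1 (epicardial) and 3 and 5 (cardiomyocyte). With library totals they gave 8 rises and 0 falls (endothelial), 7 and 0 (pericyte and smooth muscle), 3 and 0 (leukocyte), 0 and 0 (Schwann), 1 and 0 (epicardial) and 4 and 2 (cardiomyocyte), so the direction of the endothelial, pericyte and leukocyte counts rests on the scaling. The part of cell makeup, of the mitochondrial share or of what set knockout replicate 1 apart in the collagen changes was not tested.

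The authors' deposited table called 12 collagen genes positive and 5 negative at an adjusted p below 0.05, of 40 with an adjusted p. All 7990 genes that passed both there and here had the same sign. Col6a3 and Col20a1 did not pass in the authors' deposited table, which gave an adjusted p of 0.0769 for Col6a3 and 0.0646 for Col20a1, and Col9a2 and Col6a5, too low to be tested here, passed there.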

How the data were processed

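Total RNA of crude heart mitochondria from 8 mice was extracted with a miRNeasy kit, made into TruSeq libraries and read from both ends on a MiSeq, according to the labels' protocols. The sources used here give neither rRNA removal nor strandedness. The deposited count files hold whole, unscaled counts for each gene. Per the submitters' processing notes, which give neither role nor order, the authors used the build mm10, DESeq2 1.14.1 in R 3.3.2, featureCounts, bedtools, SAMtools 1.3.1 and Bowtie2. The authors' deposited table holds, per the file headers, p-values as given and adjusted, the test's score, log2 fold changes and their errors, and a mean signal over libraries.

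Counts were tested with edgeR 4.0.16 in R 4.3.3 (quasi-likelihood F test, two-sided, genotype as the only term, TMM scaling, genes kept by filterByExpr at a minimum count of 10), with Benjamini-Hochberg adjustment at 0.05 over 17891 genes. Scripts were tested on simulated data. Each standard error is the fitted log2 change divided by the square root of F. CPM use the TMM-scaled totals, whose factors were 1.03 to 1.61 in knockouts and 0.689 to 0.733 in controls, and CPM per kilobase divides by the merged exon length in GENCODE M21, where 34 of the 44 IDs match to the version. Sums over a class are given without a test. Library totals are in the report. Precision is limited by counts per gene as well as by 4 animals a group, and no 2 libraries of a group agreed within sampling noise. Chi-square per degree of freedom between replicates was 2.42 to 3.7 among controls and 7.82 to 14.2 among knockout replicates 2 to 4. It was 81.6 to 125 for pairs with knockout replicate 1.

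All genes of types I, III, IV, V, VI, VIII, XV and XVIII that could be tested are given in every library, with the 4 largest called changes of each class. From each list of partners up to 4 called members with the smallest p are named, and further genes of the biosynthesis list are named as said there. From the list of basement membrane partners 1 gene is not reported here. Members and lists were chosen with earlier results of these data known. The alternatives were DESeq2 1.42.0, other scalings, no filter on low counts, nuclear genes alone, the replicate number as a block, another added count for ratios and leaving out each library.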

Additional observations from a re-analysis of the deposited data

Results flagged for a closer look

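Of 60 groups of 4 values looked at, 10 had 1 library set apart from the other 3 by Dixon's ratio, and 6 of these were knockout replicate 1. Chance flags about 1 in 20 groups, and values of the same library are not independent of each other. Knockout replicate 1 lay below the other knockouts for Col1a2 (20.6 against 52.4 to 56.8 CPM), Col4a1 (143 against 245 to 257 CPM), Col5a2 (12.8 against 29.2 to 31.9 CPM) and Col6a2 (11.0 against 36.3 to 37.7 CPM). The same library was low in the sum of all collagen genes (521 against 1058 to 1112 CPM) and of the fibrillar genes (86.0 against 248 to 267 CPM). Among controls, replicate 2 was low for Col12a1 (0.472 against 0.830 to 0.897 CPM) and for the fibrillar sum (121 against 133 to 136 CPM). Control replicate 4 was low in the sum of the other types (174 against 186 to 187 CPM). Control replicate 1 was high in the log2 ratio of Col1a1 to Col3a1 (-1.99 against -2.49 to -2.47).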

How the results depend on the processing

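RLE factors, nuclear genes alone, DESeq2 and no filter on low counts kept the counts of collagen calls within 1.5 times those reported. Library totals as the only scaling gave 14066 higher and 480 lower genes, 25 and 1 collagen genes, 7 and 0 fibrillar, 6 and 0 type IV, and 12 and 1 of other types. They turned Col5a1 (1.02), Col5a3 (0.58), Col6a2 (1.04), Col6a3 (0.031), Col10a1 (0.82), Col13a1 (0.69), Col15a1 (0.43) and Col20a1 (0.12) upward. Without the filter Col5a1 (0.010) and Col6a2 (0.022) turned positive, and Col3a1 (0.72), Col4a3 (0.49) and Col15a1 (-0.59) gained a call. Leaving out 1 library at a time gave 10 to 20 collagen rises, 3 to 5 fibrillar, 2 to 5 type IV and 5 to 10 other rises, the upper end of each without knockout replicate 1. Fibrillar falls ranged from 1 to 2, with 1 without control replicate 3, control replicate 4, knockout replicate 3 or knockout replicate 4, where Col11a2 was lost. Over the same fits Col4a6 ranged from -0.22 to 0.50, Col5a1 from -0.19 to 0.18, Col6a1 from -0.013 to 0.37 and Col6a2 from -0.14 to 0.24. The log2 ratio of Col1a1 to Col1a2 differed by -0.11 to 0.036, that of Col1a1 to Col3a1 by 0.46 to 0.69, that of Col4a1 to Col4a2 by -0.35 to -0.19 and that of Col4a1 to Col1a1 by -1.09 to -0.77. The exact p of the last was 0.0571 without any 1 control and 0.0286 without any 1 knockout; that of Col1a1 to Col3a1 was 0.0286 without control replicate 1, and that of Col4a1 to Col4a2 was 0.0286 without knockout replicate 4.

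Same-numbered libraries did not deviate together (correlations of 0.00732, -0.0136, 0.0234 and 0.0497), so the numbers were not taken as pairs. With the replicate number as a block 11 collagen genes rose and 7 fell, the added fall being Col15a1 (-0.81, edgeR adjusted p = 0.0414). The 12 collagen genes left out by the filter had few counts. Without the filter Col6a5 (-4.28, edgeR adjusted p = 0.000388) and Col9a2 (1.40, edgeR adjusted p = 0.00461) passed, as they did with DESeq2 (adjusted p = 0.00128 and 0.0309). For the other 10 no difference was detectable at these counts.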
